A study of Mus musculus with 9 samples.

Results

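The trace amine-associated receptors, the Taar genes, were followed through an allergic rhinitis model in mouse nasal mucosa. A list of 10 Taar genes was looked up among the single-gene probe sets of the array, a probe set being the group of probes that measures a transcript, and 8 of the 10 genes had one. These were Taar2, Taar3, Taar4, Taar5, Taar6, Taar7b, Taar7d and Taar9, each with 1 probe set, out of 19938 genes with a single-gene probe set. Taar7a and Taar8a occurred only on probe sets annotated to several Taar genes, so they have no value of their own here. Nasal mucosa of BALB/c mice, an inbred strain, was measured on 9 arrays in 3 groups of 3. The 4-week group was sensitised to ovalbumin (OVA), an egg-white allergen, challenged with it and collected 4 weeks after the challenges ended. The OVA group was treated alike and collected 2 hours after its final challenge. The control group received saline for both steps. All mice were labelled male and 6 to 8 weeks old, and no transgene or drug was named in any group. The labels do not say whether each array held a separate animal or a pool, so the spread behind each p-value is that of these samples and may be technical.

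Taar proteins are G protein-coupled receptors for amines. Apart from Taar1, which is best known as a receptor for trace amines in the brain, the mouse Taar genes are used as odour receptors by sensory neurons of the olfactory epithelium. A neuron that uses a Taar gene generally uses it in place of an olfactory receptor gene, signals through the same G protein and cyclic nucleotide pathway, and lies mainly in the dorsal part of the epithelium. Amines from urine, spoiled food and predators are typical ligands, and several of them drive avoidance or attraction in mice. In RefSeq assembly GRCm38.p6 the family had 15 protein-coding genes and 1 pseudogene, all on chromosome 10 in a cluster that begins with Taar1 and ends with Taar9 and also holds the pseudogenes Gm15136 and Gm6884.

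The Taar7 genes are close copies, which bears on how separately an array can measure them. Their first 50 coding bases are shown for that reason, from the RefSeq start windows of assembly GRCm38.p6, 5′ to 3′ on the coding strand. Such a window was found for 8 of the 10 listed genes, with none for Taar4 and Taar8a. Capitals mark bases that differ from Taar7b at the same position. Taar7a lies at chr10:23993432-23993481 on the minus strand, Taar7b at chr10:23999939-23999988, Taar7d at chr10:24027222-24027271, Taar7e at chr10:24037614-24037663 and Taar7f at chr10:24049510-24049559, the last 4 on the plus strand.
Taar7a: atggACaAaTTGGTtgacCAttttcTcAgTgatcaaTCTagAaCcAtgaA
Taar7b: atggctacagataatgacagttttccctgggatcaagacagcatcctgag
Taar7d: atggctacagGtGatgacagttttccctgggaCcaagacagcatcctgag
Taar7e: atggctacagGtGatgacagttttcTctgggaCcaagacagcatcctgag
Taar7f: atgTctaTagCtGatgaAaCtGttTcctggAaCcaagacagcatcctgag
Over these 50 bases Taar7b differed from Taar7d at 3 positions, from Taar7e at 4, from Taar7f at 10 and from Taar7a at 20. Taar7d and Taar7e differed at 1 position. The probe sequences were not used here, so the values of Taar7b and Taar7d are uncertain as to how far their probes also bind transcripts of the close copies.

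The deposited values are log2 expression after RMA, a between-array normalization, and the array medians lay between 5.95 and 6.05. Arrays of a group correlated across probe sets at r = 0.986 to 0.992. All 3 arrays labelled control carried a female pattern although every sample was labelled male. Xist, the RNA of X-chromosome inactivation, was 90.5-fold higher in them than in the other 6 arrays, and the Y-linked genes Eif2s3y, Uty and Kdm5d were 31.0-fold, 16.7-fold and 5.02-fold lower. Sex and treatment therefore cannot be told apart in any comparison with the arrays labelled control. The 4-week and OVA arrays matched each other in sex pattern. Their labelled age range was the same, although they were collected at different times after the last challenge. Age at collection may therefore differ between them, and it cannot be told apart from time since challenge in 4-week minus OVA. With 3 arrays against 3, an exact two-sided permutation test of a single gene cannot go below p = 0.1, so the tests below come from limma fitted across all 23410 probe sets with a gene symbol, with Benjamini-Hochberg adjustment and a threshold of 0.05. In these bulk samples, fewer cells of a type and less RNA per cell cannot be told apart.

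None of the 8 Taar genes passed the test in any of the 3 comparisons. In 4-week minus OVA, 0 of 8 passed, against 6.33% of all probe sets (limma; at an unadjusted p under 0.05, 1 of 8, Taar3, and 23.9% of all). In 4-week minus control, 0 of 8 passed, against 14.4% of all probe sets (at an unadjusted p under 0.05, 1 of 8, Taar7b, and 32.9% of all). In OVA minus control, 0 of 8 passed, against 1.3% of all probe sets (at an unadjusted p under 0.05, 3 of 8, Taar2, Taar6 and Taar7b, and 16.4% of all). The limma F test for any difference among the groups also called 0 of 8, against 12.4% of all probe sets. The 24 changes ran from -0.51 to 0.48 on the log2 scale, with adjusted p between 0.115 and 0.935. Their 95% intervals reached from -0.999 to 0.879, so that a change of more than 2.00-fold lay outside the interval of each of the 8 genes in each comparison. Leaving out 1 control array altered this count, as given with Taar3 below.

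**Figure D1:**
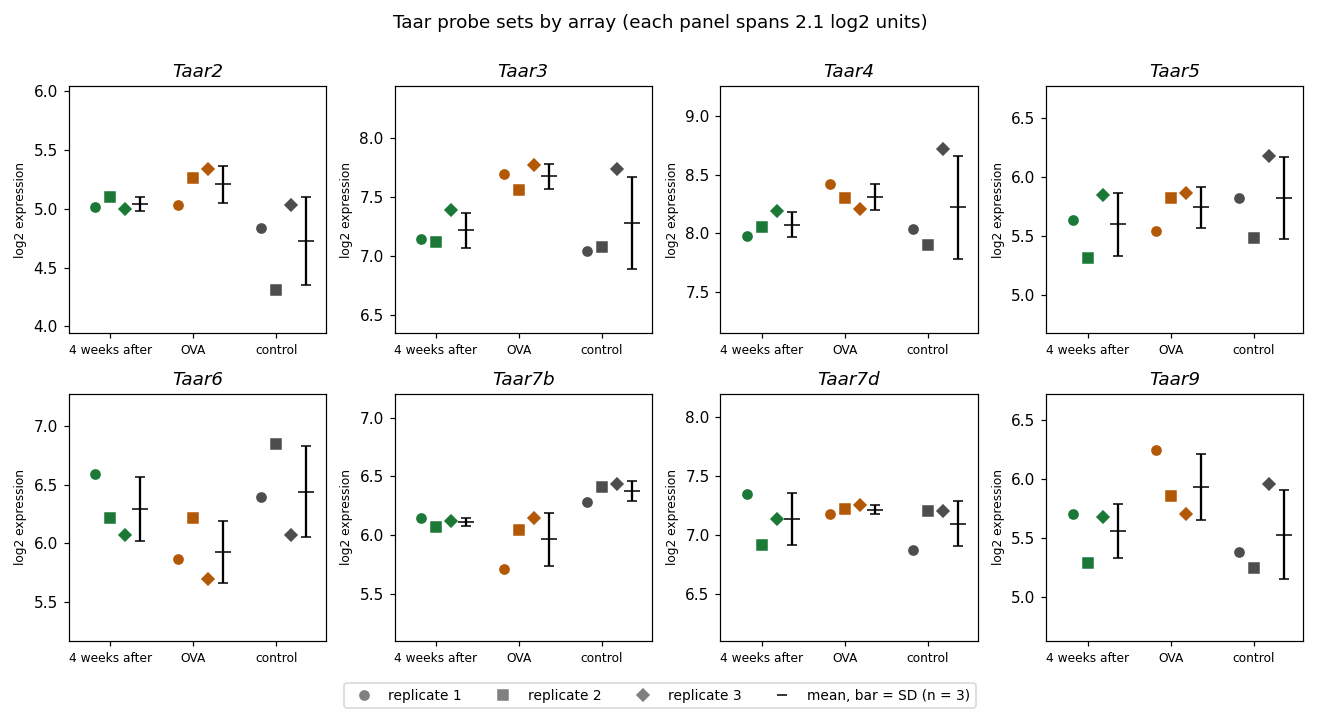
Log2 expression of the 8 Taar genes on each of the 9 arrays, in panels of equal height, with the 4-week group on the left, the OVA group in the middle and the arrays labelled control on the right. Marker shapes are replicates, and bars show the mean and SD of 3 arrays. For 6 of the 8 genes the SD was largest among the arrays labelled control.

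Taar3, whose known ligands include isoamylamine, had the largest difference between the 4-week and OVA groups. Its log2 values were 7.14, 7.12 and 7.39 in the 4-week arrays, 7.70, 7.56 and 7.78 in the OVA arrays and 7.04, 7.07 and 7.74 in the arrays labelled control. Every 4-week array lay below every OVA array, while the arrays labelled control spanned both groups, with replicate 3 among the OVA values. The 4-week minus OVA change was -0.46 (SE 0.17, adjusted p = 0.151), a 1.38-fold lower level. Without control replicate 3 the same change passed (limma adjusted p = 0.0342). The change itself was the same in that fit, and the spread estimate shared by all groups was what differed. With the 4-week and OVA arrays alone it did not pass (adjusted p = 0.0618). Over all alternatives its adjusted p ran from 0.0342 to 0.598, the highest when arrays were scaled to neuron markers.

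Taar4, the receptor for the predator odour 2-phenylethylamine, stood at 7.98, 8.06 and 8.19 in the 4-week arrays, 8.42, 8.30 and 8.20 in the OVA arrays and 8.04, 7.91 and 8.72 in the arrays labelled control. The 4-week arrays lay below the OVA arrays with no overlap, although the closest pair differed by only a little, and control replicate 3 was the highest of all 9 arrays. The change was -0.24 in 4-week minus OVA (SE 0.19, adjusted p = 0.475) and 0.09 in OVA minus control (SE 0.19, adjusted p = 0.855). Groups without overlap were thus found for 2 of 8 Taar genes in 4-week minus OVA, against 28.1% of all probe sets.

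Taar5, the receptor for trimethylamine, a component of male mouse urine, had 5.64, 5.32 and 5.85 in the 4-week arrays, 5.54, 5.82 and 5.87 in the OVA arrays and 5.82, 5.48 and 6.18 in the arrays labelled control. The groups overlapped in every comparison. Group means were 5.60 ± 0.27, 5.74 ± 0.18 and 5.83 ± 0.35 (SD, n = 3 each) in the 4-week, OVA and control groups, so neighbouring groups differed by less than their spread. The 4-week minus control interval, -0.66 to 0.20, leaves room for a change in either direction.

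Taar9, which responds to polyamines and related tertiary amines, read 5.71, 5.29 and 5.68 in the 4-week arrays, 6.25, 5.86 and 5.71 in the OVA arrays and 5.38, 5.25 and 5.96 in the arrays labelled control. The OVA arrays were mostly at the upper end, and 4-week replicate 1 reached the lowest OVA array. The change was -0.38 in 4-week minus OVA (SE 0.21, adjusted p = 0.310) and 0.41 in OVA minus control (SE 0.21, adjusted p = 0.372). The 4-week minus OVA change was -0.22 without OVA replicate 1, -0.24 without 4-week replicate 2 and -0.49 without OVA replicate 3. The OVA minus control change was 0.25 without OVA replicate 1, 0.27 without control replicate 2 and 0.62 without control replicate 3.

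Taar2, an olfactory Taar gene, had the highest OVA minus control change of the 8. Its values were 5.02, 5.10 and 4.999 in the 4-week arrays, 5.03, 5.26 and 5.33 in the OVA arrays and 4.84, 4.31 and 5.03 in the arrays labelled control. Control replicate 2 was the lowest array by a wide margin, and control replicate 3 equalled the lowest OVA array. The OVA minus control change was 0.48 (SE 0.17, adjusted p = 0.202). It was 0.27 without control replicate 2 and 0.63 without control replicate 3. The 4-week minus control change was 0.31 (SE 0.17, adjusted p = 0.224). It was 0.10 without control replicate 2 and 0.47 without control replicate 3.

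Taar6, another olfactory Taar gene, had the lowest OVA minus control change of the 8. It stood at 6.59, 6.22 and 6.07 in the 4-week arrays, 5.87, 6.22 and 5.70 in the OVA arrays and 6.40, 6.85 and 6.07 in the arrays labelled control. The OVA group held the lowest values, and its highest array equalled a 4-week array. The change was 0.37 in 4-week minus OVA (SE 0.22, adjusted p = 0.337) and -0.51 in OVA minus control (SE 0.22, adjusted p = 0.285). The first was 0.22 without 4-week replicate 1 and 0.51 without OVA replicate 2. The second was -0.31 without control replicate 2 and -0.69 without control replicate 3. In each of the 3 groups, replicate 3 had both the highest Taar3 and the lowest Taar6 value of its group. Taar6 has no other probe set that could check this pattern.

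Taar7b and Taar7d belong to the close copies shown above. Taar7b had 6.14, 6.07 and 6.12 in the 4-week arrays, 5.71, 6.04 and 6.14 in the OVA arrays and 6.28, 6.41 and 6.44 in the arrays labelled control. Both allergen groups lay below every array labelled control. The change was -0.26 in 4-week minus control (SE 0.11, adjusted p = 0.133) and -0.41 in OVA minus control (SE 0.11, adjusted p = 0.115), the lowest adjusted p of any Taar gene. Taar7b was the 1 gene of 8 whose groups did not overlap in either of these comparisons, against 35% of all probe sets in 4-week minus control and 21.5% in OVA minus control. Both comparisons share the same 3 arrays labelled control. Taar7d stood at 7.35, 6.91 and 7.14 in the 4-week arrays, 7.17, 7.22 and 7.25 in the OVA arrays and 6.87, 7.20 and 7.20 in the arrays labelled control. Its groups overlapped throughout, its changes lay between -0.08 and 0.12, and its OVA minus control interval of -0.16 to 0.40 was among the narrowest of the family. The difference between the paralogs was not tested.

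**Figure D2:**
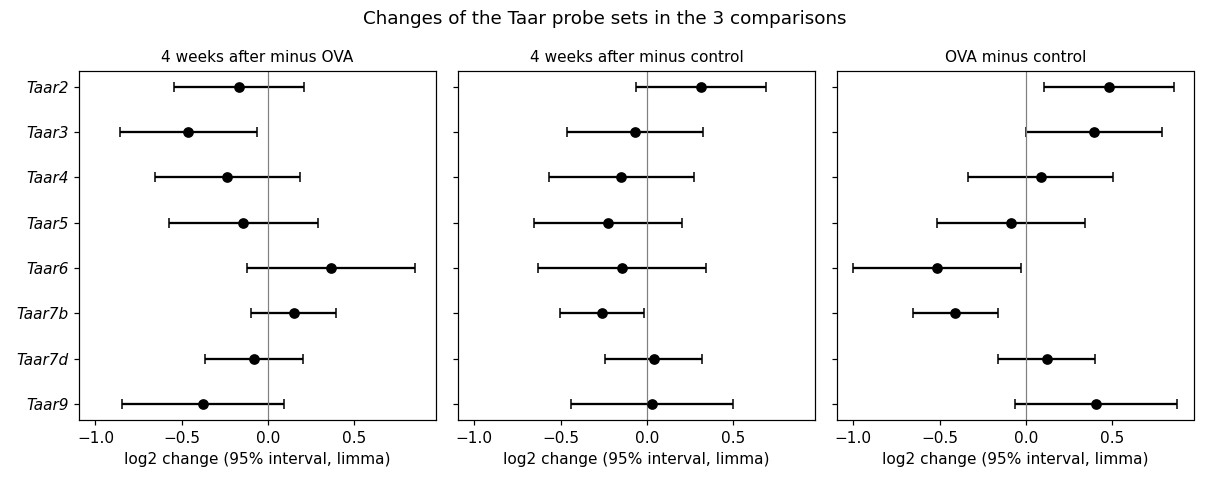
Log2 changes of the 8 Taar genes with limma's 95% intervals, in 4-week minus OVA, 4-week minus control and OVA minus control. Of the 24 intervals, 5 leave out 0 before adjustment for multiple tests, the farthest end is at -0.999 for Taar6 in OVA minus control, and no change passed after adjustment.

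The remaining Taar probe sets gave no call either. Taar1 averaged 3.41 ± 0.18, 3.51 ± 0.12 and 3.49 ± 0.17 (SD, n = 3 each) in the 4-week, OVA and control groups. Taar8b, a close relative of the unmeasured Taar8a, had 3.09, 3.02 and 3.19 in the 4-week arrays, 3.77, 3.37 and 3.30 in the OVA arrays and 3.16, 2.97 and 3.25 in the arrays labelled control. Its OVA arrays lay above all others, but the changes did not pass (4-week minus OVA -0.38, limma adjusted p = 0.119, and OVA minus control 0.36, limma adjusted p = 0.223). Groups lay apart in these directions for 13.7% of all probe sets in 4-week minus OVA and 10.4% in OVA minus control. Taar8b averaged only 3.24 over the 9 arrays, outside the upper 60% of probe sets by mean. Taar7e was at 6.92 ± 0.14, 6.83 ± 0.11 and 7.09 ± 0.15 in the 4-week, OVA and control groups, Taar7f at 5.22 ± 0.11, 5.43 ± 0.10 and 5.21 ± 0.10, and Taar8c at 2.92 ± 0.22, 2.97 ± 0.17 and 2.94 ± 0.17. The probe set annotated to 5 Taar7 genes averaged 7.43 ± 0.15, 7.33 ± 0.16 and 7.21 ± 0.14, and that annotated to 3 Taar8 genes averaged 5.24, 5.23 and 5.23. Adjusted p over these 7 probe sets ran from 0.119 to 0.986. Exactly repeated values on different arrays were found for 6 of the 8 Taar genes and for 52.1% of all probe sets tested. Equal values of a gene on different arrays are thus common here, and their source was not tested.

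On some arrays the Taar genes deviated in the same direction as markers of mature olfactory neurons, and on others they did not. The mean deviation of the 8 Taar genes from their own 9-array means was 0.01, -0.18 and -0.01 in the 4-week arrays, 0.02, 0.10 and 0.06 in the OVA arrays and -0.10, -0.13 and 0.23 in the arrays labelled control. The mean deviation of 21 mature olfactory neuron markers was 0.13, -0.30 and -0.24, then -0.09, 0.07 and 0.01, and -0.05, 0.11 and 0.37 on the same arrays. Control replicate 3 was the highest and 4-week replicate 2 the lowest array on both measures, while control replicate 2 was low for Taar genes and high for the markers. The part of neuron content in the Taar values was not tested.

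Of these 21 markers, Slc24a4, an ion exchanger of the sensory cilia, fell in 4-week minus OVA (-0.59, limma adjusted p = 0.0344) and S100a5, an activity-dependent calcium-binding protein, rose (0.52, limma adjusted p = 0.0196). Over all probe sets, 2.51% were called lower and 3.81% higher in that comparison. In 4-week minus control 4 fell, Slc24a4 (-0.92), the adhesion protein gene Kirrel3 (-0.68), the receptor-transporting protein gene Rtp1 (-0.63) and the olfactory G protein gene Gnal (-0.44), and S100a5 rose (0.35). Here 6.45% of all probe sets were called lower and 7.92% higher. In OVA minus control none of the 21 passed in limma (at an unadjusted p under 0.05, 5 of 21, and 16.4% of all probe sets). With 1 of the 9 arrays left out in turn, the 4-week minus OVA call was lost in 6 of 9 fits for Slc24a4 and 4 for S100a5. The 4-week minus control call was lost in 0 for Slc24a4, 3 for Kirrel3, 4 for Rtp1, 7 for Gnal and 9 for S100a5, with adjusted p up to 0.119. The mature neuron protein gene Omp, whose level shows olfactory epithelium in the sampled mucosa, had 11.78, 11.82 and 12.26 as means of the 4-week, OVA and control groups and did not pass against control (adjusted p = 0.0669 and 0.208). The adenylyl cyclase gene Adcy3 and the channel gene Cnga2 had no call, with changes between -0.31 and 0.19.

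The olfactory receptor genes, used by most of the other sensory neurons, had 206 of 1027 lower and 3 higher in 4-week minus control, against 6.45% and 7.92% of all probe sets. Their median change was -0.32, beside -0.11 for the Taar genes and -0.04 for all probe sets. In 4-week minus OVA, 31 were lower and 1 higher, against 2.51% and 3.81% of all probe sets, the 31 being near the overall share. The medians were -0.10 for olfactory receptors, -0.16 for Taar genes and -0.02 for all probe sets. In OVA minus control, 48 were lower and 1 higher, against 0.521% and 0.782% of all probe sets, and the medians were -0.19, 0.10 and -0.02. A difference between the Taar and olfactory receptor families was not tested. When each array was instead scaled to the mature neuron markers, the 4-week minus control change was above 0 for 8 of 8 Taar genes, against 3 of 8 as deposited. That scaling also moved the median of all probe sets to 0.24, above the Taar median of 0.17, and put 86.0% of all probe sets above 0. The changes that turned under it were those of Taar3, Taar4, Taar5, Taar6 and Taar7b in 4-week minus control, Taar7d in 4-week minus OVA and Taar5 in OVA minus control.

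**Figure D3:**
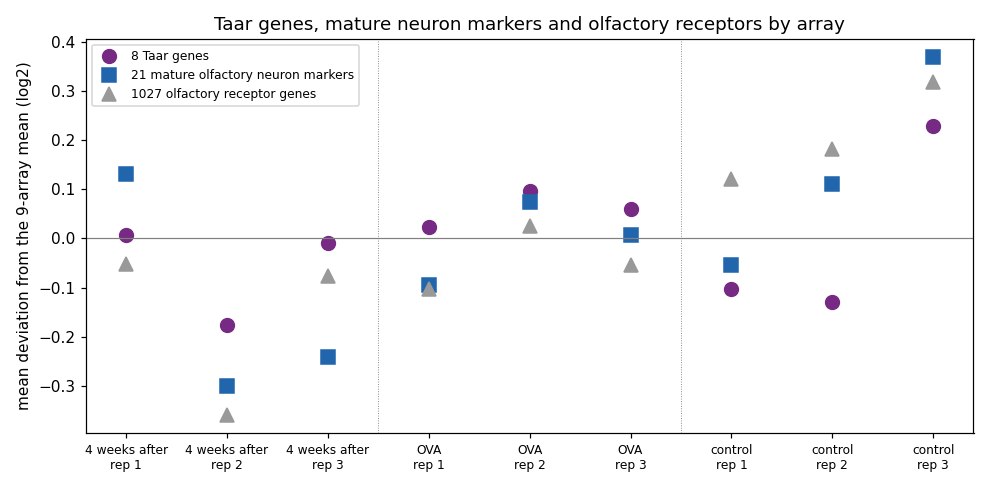
Mean deviation from the 9-array mean, in log2 units, for 8 Taar genes, 21 mature olfactory neuron markers and 1027 olfactory receptor genes on each array, from the 4-week arrays on the left to the arrays labelled control on the right. All 3 gene groups are lowest on 4-week replicate 2 and highest on control replicate 3. On control replicate 2 the Taar genes are at -0.13, with the markers at 0.11 and the olfactory receptors at 0.18, and on control replicate 1 the Taar genes and markers are below 0 and the olfactory receptors at 0.12.

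Genes that set up receptor choice and neuron identity were read beside the family. In 4-week minus OVA, 2 of 17 fell, against 2.51% of all probe sets called lower. They were Atf5 (-0.50, limma adjusted p = 0.0477), a transcription factor of the response that stabilises receptor choice, and Ddit3 (-0.43, limma adjusted p = 0.0153), a stress transcription factor. In 4-week minus control 4 of 17 fell, against 6.45% of all probe sets called lower. The largest changes were those of Ebf4 (-0.73), Rtp1 (-0.63) and Atf5 (-0.61). Rtp1 is also among the 21 mature neuron markers, so its fall is the result already given there. In OVA minus control none of 17 passed in limma (at an unadjusted p under 0.05, 3 of 17, and 16.4% of all probe sets). The 4-week minus OVA call was lost in 7 of the 9 fits without 1 array for Atf5 and in 3 for Ddit3 (adjusted p up to 0.134). The 4-week minus control call was lost in 4 for Ebf4 and Rtp1 and in 1 for Atf5. The dorsal epithelium markers Nqo1 and Acsm4 had no call, with 4-week minus control changes of 0.09 and 0.26. Of 9 dorsal and ventral markers and guidance genes, the semaphorin receptor gene Nrp1 alone passed in limma, in 4-week minus control (0.48, adjusted p = 0.0148, and 0.0520 without control replicate 2). In that comparison 7.92% of all probe sets were called higher. Of 15 immature neuron markers, 1 fell in 4-week minus OVA and none rose, against 2.51% of all probe sets called lower and 3.81% called higher, with a median change of -0.15. The gene that fell was Gng8, a G protein gamma subunit gene (-0.48, limma adjusted p = 0.0391), and its call was lost in 6 of the 9 fits without 1 array (adjusted p up to 0.122). In the comparisons with the arrays labelled control, 7 of the 15 rose in 4-week minus control, against 7.92% of all probe sets, and 6 rose in OVA minus control, against 0.782%. Without 1 array these counts were 5 to 7 and 4 to 6. Nhlh1, a neuronal transcription factor gene, rose in both, by 1.37 and 1.66 (limma adjusted p = 0.00400 and 0.00833). Markers of sustentacular and gland cells had 0 calls among 11 genes in each of the 3 comparisons in limma. At an unadjusted p under 0.05 there were 5 in 4-week minus OVA, 6 in 4-week minus control and 5 in OVA minus control. The shares of all probe sets at that level were 23.9%, 32.9% and 16.4%, so this list lay above them before adjustment. Among the 11 genes, the gland gene Bpifb9b, named after its values were seen, had 11.13, 9.19 and 9.49 in the 4-week arrays, 5.06, 7.46 and 9.20 in the OVA arrays and 11.30, 12.15 and 12.41 in the arrays labelled control. Its OVA arrays all lay below the arrays labelled control, as was so for 11.1% of all probe sets. This rests on the same arrays as its p-value. Its OVA minus control change of -4.71 (SE 0.93) had a limma adjusted p of 0.05004, just above the threshold. With 1 array left out, that change passed in only 1 of the 9 fits (adjusted p = 0.0349 without OVA replicate 3, and up to 0.154 in the others). Its 4-week minus OVA change was 2.70 (limma adjusted p = 0.120). Bpifb9b does not stand for its list. Of the 11 changes in OVA minus control, 5 were above 0, and the median was -0.02. Among those above 0, Aqp5, Sox9 and Sult1c1 were higher by 0.37, 0.36 and 0.29, and none passed. In 4-week minus control, 2 of 12 respiratory and ciliated epithelium markers and 1 of 17 leukocyte markers were called higher, against 7.92% of all probe sets, and 1 of 18 markers of other chemosensory neurons was called lower, against 6.45%.

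Enzymes that make or break down amines, the ligands of these receptors, were read from a list of 26 genes, of which 21 had a single-gene probe set. Of the 21, 2 rose in 4-week minus OVA and none fell, against 3.81% of all probe sets called higher and 2.51% called lower. Without 1 array, 0 to 3 rose. Maob, a monoamine oxidase that degrades phenylethylamine, had 9.88, 9.98 and 10.34 in the 4-week arrays and 9.48, 9.62 and 9.47 in the OVA arrays, and rose by 0.55 (SE 0.11, limma adjusted p = 0.0279). Fmo1, a flavin-containing monooxygenase, had 10.27, 10.19 and 10.08 in the 4-week arrays and 9.20, 9.63 and 9.08 in the OVA arrays, and rose by 0.87 (SE 0.15, limma adjusted p = 0.0142). The groups did not overlap for either gene, against 28.1% of all probe sets. This rests on the same arrays as the calls and is no separate support. Sat1, which acetylates polyamines, rose in 4-week minus control (0.78, limma adjusted p = 0.0297), where 7.92% of all probe sets were called higher. None of the 21 passed in OVA minus control in limma (at an unadjusted p under 0.05, 6 of 21, and 16.4% of all probe sets). Without 1 array, the calls were lost in 4 of 9 fits for Maob, 2 for Fmo1 and 4 for Sat1 (adjusted p up to 0.0973). Ddc, the decarboxylase that forms trace amines, and Maoa had changes between -0.10 and 0.14 with no call. The list's median change was 0.03 in 4-week minus OVA, 0.09 in 4-week minus control and -0.06 in OVA minus control.

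The genes next to the cluster on chromosome 10 that had a single-gene probe set were Slc18b1, Vnn3 and Vnn1 on the side of Taar1 and Stx7, Moxd1 and Ccn2 on the side of Taar9. Ccn2, a matrix-associated growth factor gene and the farthest of the 6 in gene order, rose in 4-week minus control (0.72, SE 0.10, limma adjusted p = 0.00438) and in OVA minus control (0.66, SE 0.10, limma adjusted p = 0.0219). The OVA minus control call was lost in 5 of the 9 fits without 1 array (adjusted p up to 0.0739) and the 4-week minus control call in 0. The other 5 neighbours passed in no comparison. Over all probe sets, 7.92% were called higher in 4-week minus control and 0.782% in OVA minus control.

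Across the 9 arrays, the genes whose profile was most like the mean profile of the 8 Taar genes were the olfactory receptor gene Olfr1377 (Pearson r = 0.97), Elavl2, a neuronal RNA-binding protein gene (0.95), Scn3b, a sodium channel subunit gene (0.94), Sdr16c5 (0.94), Psen2, a presenilin gene (0.92), and Eml6 (0.92). These are the 6 highest of all genes and a description only. The arrays share their groups, and control replicate 3 was the highest array for each of the 6. None of these genes passed in any comparison. They were picked for likeness to genes without a call, so that is no separate result.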

How the data were processed

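RNA of nasal mucosa was run on Affymetrix Mouse Gene 1.0 ST arrays after amplification and biotin labelling, per the labels' protocols. The authors deposited log2 expression values per probe set made with RMA, per the submitters' processing notes. Values from 1.63 to 13.8 show the scale as log2. The sources used here do not give the software version or the probe library. There are no detection calls, so signal over background is unknown. The 2016 platform annotation named 23410 of 35556 rows, 21789 of them with 1 gene, and symbols were updated through RefSeq GRCm38.p6.

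A single fit of limma 3.58.1 (R 4.3.3) over the 9 arrays had 1 mean per group, with 6 residual and 2.98 prior degrees of freedom. Tests were two-sided and adjusted within each contrast over 23410 probe sets. No low-value filter was applied, and 5 of the 8 Taar genes lie in the upper 60% of probe sets by mean. The fit was also run on simulated data with noise independent between arrays and probe sets. Such data do not show how it behaves where genes deviate together on an array. Besides the Taar genes, the text names the 6 most similar profiles, up to 3 neighbours per side of the cluster, fixed markers and enzymes, and up to 3 called genes per list and direction. Members and lists were chosen with earlier results of these data known. The alternatives are listed in the closing section.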

Additional observations from a re-analysis of the deposited data

How the results depend on the processing

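Calls among the Taar genes stayed at 0 of 8 in all 3 comparisons under quantile normalization, median centring, scaling to mature neuron markers, a dim filter (5 of the 8 genes left), every row, 1 probe set per gene, the mean of a gene's probe sets, the compared groups only, a trended robust prior and the replicate block. Leaving out 1 array gave 0 to 1 calls in 4-week minus OVA, the call being Taar3 without control replicate 3, and 0 in both other comparisons.

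Signs of small changes turned. Median centring put Taar3 at 0.0064 in 4-week minus control. Scaling to neuron markers put Taar3 at 0.21, Taar4 at 0.13, Taar5 at 0.053, Taar6 at 0.13 and Taar7b at 0.020 in 4-week minus control, Taar7d at 0.052 in 4-week minus OVA and Taar5 at 0.063 in OVA minus control, with the median of all probe sets moved to between 0.11 and 0.24. Without 1 array, changes spanned 0 for Taar3 (-0.19 to 0.16), Taar4 (-0.31 to 0.10), Taar6 (-0.33 to 0.057), Taar7d (-0.070 to 0.15) and Taar9 (-0.11 to 0.24) in 4-week minus control. They also did for Taar5 (-0.27 to 4.2e-05) and Taar7d (-0.19 to 0.029) in 4-week minus OVA, and for Taar4 (-0.070 to 0.34) and Taar5 (-0.26 to 0.092) in OVA minus control.

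Calls over all probe sets numbered 1481 in 4-week minus OVA, 3364 in 4-week minus control, 305 in OVA minus control and 2910 in the F test. Without 1 array they ranged from 446 to 1361, 1560 to 2966, 63 to 305 and 1195 to 2249 in that order. The compared groups alone gave 737, 2054 and 109 in the 3 comparisons. For 4-week minus OVA, scaling to neuron markers gave 274, 1 probe set per gene 946 and the mean of probe sets 948. Every row gave 143 in OVA minus control, and scaling to neuron markers 1552 in the F test. The share of higher calls, 60.3%, 55.1% and 60% in the 3 comparisons, was 78.1%, 75.7% and 63.1% after median centring, 76.6%, 92.6% and 68.4% after scaling to neuron markers, and 59.9%, 53.8% and 49.5% after quantile normalization. Same-numbered arrays did not deviate together in every pair (r from -0.04 to 0.33), so pairing by number was not established; the replicate block gave 1397, 3271 and 213 calls. Taar3 in 4-week minus OVA had an adjusted p of 0.0669 with the replicate block. The cause of these shifts was not tested.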
